A study of Homo sapiens with 3 samples.

Results

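The transcriptome of the culture labelled HepG2/metR was set against that of parental HepG2, labelled HepG2/wild, to describe which expression programs the metformin-selected cells carried and which they lacked. The comparison covered every gene symbol with a mean of at least 1 FPKM (fragments scaled to transcript length and library size) over the 3 libraries of the study, which was 12210 of 25270 symbols, and used 2 of the 3 libraries. HepG2 is an established human liver cancer line. HepG2/metR cells had been exposed to metformin, a biguanide used against diabetes, for more than 5 months, and the parental cells had received no treatment. Both were grown in DMEM with 10% fetal bovine serum, and total RNA was sequenced. The third library, HepG2/metR given the lactate dehydrogenase inhibitor oxamate at 40 mM for 24 h, was not part of the comparison, but its values are printed beside the others because it came from the same selected cells. There was 1 library per condition (n = 1), so no difference below has a replicate check or a p-value. The depth in reads is unknown, and the selected culture is a single line.

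Hepatocytes are epithelial cells that make most of the proteins of blood plasma, and they hold enzyme sets for bile acid synthesis, drug conjugation, amino acid breakdown and glucose output. A group of transcription factors that includes HNF4A, CEBPA and the FOXA proteins keeps these genes active, and HepG2 is widely used because it still expresses many of them. Metformin slows complex I of the mitochondrial respiratory chain, and cells under it depend more on glycolysis and lactate production.

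The label was first checked against genes that define hepatocytes. In parental HepG2, ALB (albumin) stood at 9206 FPKM, APOA1 at 2380, APOA2 at 11976, TTR at 302, SERPINA1 at 1709, FGB at 163 and HNF4A at 68.7. In HepG2/metR the same genes stood at 0.747, 0, 0.407, 0, 11.2, 1.30 and 0.0156 FPKM. Of these 7 genes only SERPINA1 and FGB remained above 1 FPKM in the library labelled HepG2/metR, so the tissue label rests on the line's name and not on its liver genes. The simple epithelial keratins KRT8 and KRT18 were kept, at 1080 and 605 FPKM in parental cells and 897 and 787 FPKM in HepG2/metR. Markers of other cell types were mostly low in both. Of 14 fibroblast and stromal markers 4 were kept, and their summed level was 27.9 FPKM in parental cells, 68.6 in HepG2/metR and 75.1 with oxamate. The defining marker THY1 made up most of the sum in the HepG2/metR libraries, at 0.0374, 53.3 and 48.5 FPKM, and 2 of the 14 were listed at 0 in HepG2/metR. Of 12 endothelial markers 3 were kept, with sums of 14.5, 2.93 and 3.85 FPKM. Of 14 blood and immune markers 3 were kept, with sums of 48.4, 46.6 and 33.4 FPKM. Of 14 squamous and other epithelial markers 4 were kept, and the median change over all 14 was 0. Of the 4 kept 3 were at least 2-fold higher, against 16.6% of all genes compared. All 3 were under 1 FPKM in parental cells, so they passed the filter through the HepG2/metR libraries and had to differ. The list had sums of 217, 163 and 150.1 FPKM. The sum was mostly KRT19 in parental cells, at 214, 12.3 and 10.0 FPKM. In the HepG2/metR libraries it was mostly KRT7, at 0.632, 127 and 110 FPKM, and TFAP2A was listed at 0, 19.7 and 23.8 FPKM. Of 14 neural and melanocyte markers 3 were kept, with sums of 147, 41.0 and 28.5 FPKM, mostly TUBB3, a neuronal tubulin also found in tumour lines, at 144, 34.7 and 19.1 FPKM. The part of other cell types in the results below was not tested.

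Genes whose presence can mark a genome also differed between the cultures. GSTM1, a glutathione transferase gene that many people lack, was listed at 0.0423 FPKM in parental cells, 33.8 in HepG2/metR and 24.5 with oxamate. MTAP, which recycles methylthioadenosine, was listed at 15.3, 0.00714 and 0.00697 FPKM, and its neighbours on chromosome 9, the cell cycle inhibitors CDKN2A and CDKN2B, at 5.76 and 3.90 FPKM in parental cells and at 0 in both HepG2/metR libraries. Of the 8 Y-linked genes kept, 0 reached 0.1 FPKM in either HepG2/metR library, so all 8 had passed the filter through their level in parental cells. No DNA was examined, and from expression alone selection under metformin, loss of chromosome material and a different origin of the cultures cannot be told apart. Below, HepG2/metR stands for the library so labelled. In bulk RNA, fewer cells of a type and less RNA per cell cannot be told apart either.

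Changes were taken as differences of the deposited log2(FPKM + 1) values, a scale that understates the change of low genes. On this scale HepG2/metR held 2021 genes (16.6% of those compared) at least 2-fold above parental cells and 2147 (17.6%) at least 2-fold below them, with a median log2 change of 0.02 over all genes compared. The counts depend on where the line is drawn, because 198 genes lay within 0.1 above the upper threshold and 229 within 0.1 below it, and 207 lay just beyond the lower threshold and 222 just short of it. The filter had a similar edge, with 130 genes kept at a mean of 1 to 1.1 FPKM and 163 left out at 0.9 to 1. At the extremes the comparison was unequal. At least 32-fold differences counted 97 genes higher and 182 lower, and at least 256-fold differences counted 8 higher and 34 lower. These counts include small RNAs, and of the 8 higher only LDHB, VIM, SRGN, CAV1 and FSTL1 were genes of another kind.

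The extremes were also split by level in the library where the gene was higher. Of the 182 genes at least 32-fold lower, 18 stood at 1000 FPKM or more in that library and 75 at 100 to 1000 FPKM, against 3 and 34 of the 97 higher ones. Of the 34 at least 256-fold lower 13 stood at 1000 FPKM or more, against 2 of the 8 higher. Of those 2 only VIM was not a small RNA. Small RNAs were left out of the remaining counts of this paragraph, unlike those above. Parental HepG2 held 85 genes at 1000 FPKM or more, of which 19 were reduced by at least 2-fold in HepG2/metR and 11 were under 1 FPKM there. Of 84 genes at that level in HepG2/metR, 9 were at least 2-fold higher than in parental cells and 0 had been under 1 FPKM. Between 100 and 1000 FPKM, 61 of 750 parental genes were under 1 FPKM in HepG2/metR, against 21 of 692 in the opposite direction.

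A stricter call counted genes that crossed from clearly present to nearly absent. A gene was called switched off when parental cells held at least 10 FPKM and HepG2/metR at most 1 FPKM of it, and switched on in the reverse case. This gave 405 genes switched off (3.32%) and 291 switched on (2.38%). The 405 held 12.9% of the summed FPKM of the parental library and 0.0130% of that of HepG2/metR, with a median of 27.1 FPKM in parental cells and 0.0425 FPKM in HepG2/metR. The 291 held 0.00968% and 2.79%, with medians of 0.0647 and 22.4 FPKM. The third library gave similar levels, with a median of 0.0391 FPKM for the switched-off and 21.2 FPKM for the switched-on genes. There, 376 of the 405 were at 1 FPKM or less and 259 of the 291 were at 10 FPKM or more. Small nucleolar RNAs and microRNAs made up 15 of the switched-off and 20 of the switched-on genes and were less steady. SNORD99, for example, was listed at 0 in parental cells, 754 FPKM in HepG2/metR and 0 again with oxamate. A listed 0 may also be a failed estimate, since RPL21, a ribosomal protein gene every cell uses, was listed at 0.00975 FPKM in parental cells and 18.0 FPKM in HepG2/metR.

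**Figure D1:**
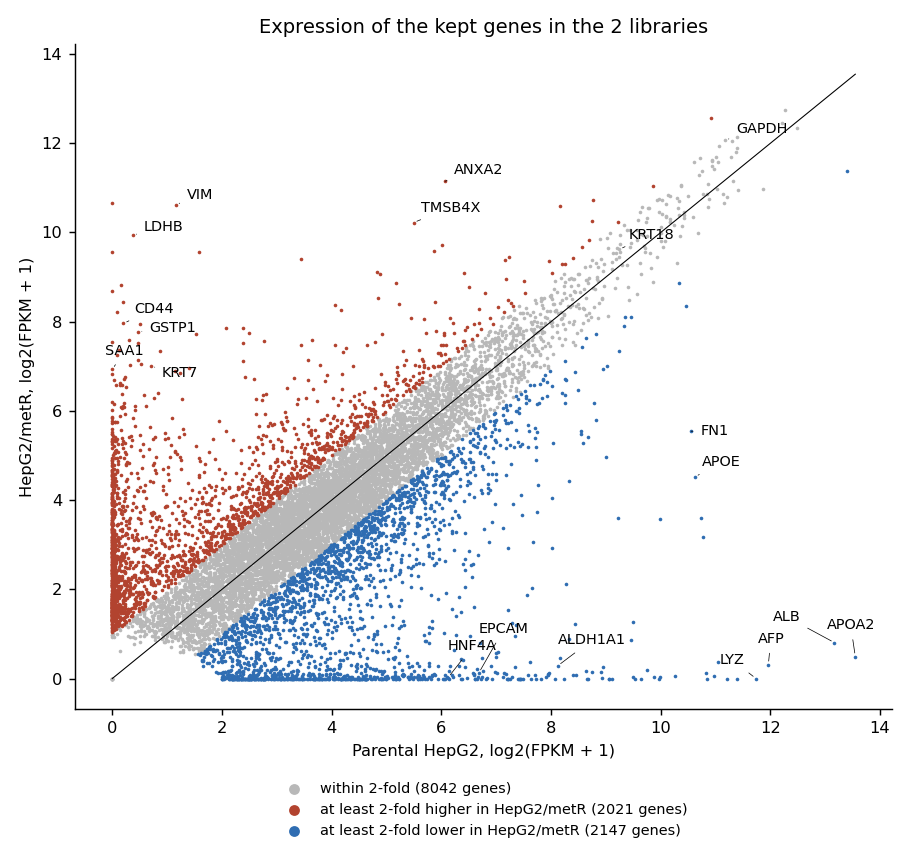
Each point is 1 of the 12210 genes compared, placed by its log2(FPKM + 1) in parental HepG2 (horizontal axis) and HepG2/metR (vertical axis), with 1 library per axis and the line of equal level drawn. Red marks the 2021 genes higher by at least 2-fold in HepG2/metR and blue the 2147 lower by as much, and the points on the horizontal axis reach from LYZ and AFP to APOA2 and ALB at the far right, while the highest points on the vertical axis include LDHB and VIM.

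Among genes with a mean of at least 10 FPKM, small RNAs left out, the largest falls were nearly all of secreted proteins. Besides APOA2, ALB and APOA1 they were LYZ (lysozyme), AFP (the fetal counterpart of albumin), APOH, GPC3, AHSG, TF (transferrin), AMBP, APOB, A2M, FGG, SEPP1 (a selenium carrier) and ITIH2. LYZ was listed at 3415 FPKM in parental cells, 0 in HepG2/metR and 0.230 with oxamate. AFP stood at 3989, 0.241 and 0.598 FPKM, and TF at 1229, 0.0392 and 0.0511 FPKM. GPC3, a cell surface proteoglycan of liver cancer, stood at 1811, 0.0963 and 0.113 FPKM. In parental cells the 15 ran from 719 FPKM for ITIH2 to 11976 FPKM for APOA2, and all were under 1 FPKM in both HepG2/metR libraries. The largest rises were of a different kind and included structural, membrane and signalling genes. They were LDHB, VIM (vimentin), SRGN, CAV1, FSTL1, ANXA1, CD44, FXYD5, GSTP1, IGFBP3, UCHL1, G0S2, MSN, SAA1 and NNMT. SRGN, the core protein of a secretory granule proteoglycan, stood at 0.118, 453 and 277 FPKM in the 3 libraries. UCHL1, a deubiquitinase typical of neurons, stood at 0.0904, 163 and 166 FPKM. NNMT, which methylates nicotinamide, was listed at 0, 113 and 123 FPKM.

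The lists below hold only members that passed the filter, and a member high in 1 library alone passed through that library and had to differ. Counts and medians over kept members therefore support no direction, and the median over all listed symbols found in the files, without the filter, is given as the unfiltered median (0 over all symbols).

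The plasma proteins had the lowest list median, with and without the filter. Of 27 plasma carriers and acute phase proteins kept from a list of 32, 25 were at least 2-fold lower and 2 higher, with a median log2 change of -7.43 and an unfiltered median of -7.17. Their sum went from 4.24% of the library's FPKM to 0.0265%. AHSG, a carrier of calcium phosphate, stood at 2118, 0.299 and 0.171 FPKM. The 2 exceptions were the serum amyloid genes SAA1 and SAA2, acute phase proteins that are also made outside the liver. SAA1 was listed at 0 in parental cells, 121 FPKM in HepG2/metR and 107 with oxamate, and SAA2 at 0, 5.68 and 5.95 FPKM. Their close relative SAA4, which the liver makes constitutively, went the other way, from 225 FPKM in parental cells to 1.07e-06 FPKM in HepG2/metR and 0 with oxamate. Of 16 apolipoproteins kept from 20, 12 were lower and 0 higher, with a median of -5.90 (unfiltered -3.57), and their sum went from 20538 to 76.4 FPKM. The 4 within 2-fold included APOL2, a cytosolic member of the family, at 17.2 FPKM in parental cells and 12.9 in HepG2/metR. All 17 clotting and fibrinolysis proteins kept from 24 were lower, with a median of -5.65 (unfiltered -3.89), and 14 of them were under 1 FPKM in HepG2/metR. Fibrinogen's chains were among them, with FGA at 533 FPKM in parental cells and listed at 0 in HepG2/metR, and prothrombin, F2, went from 247 to 0.0940 FPKM. All 15 complement proteins kept from 22 were lower, with a median of -3.74 (unfiltered -3.02), and C3, the component on which the complement pathways converge, stood at 429, 0.103 and 0.168 FPKM.

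**Figure D2:**
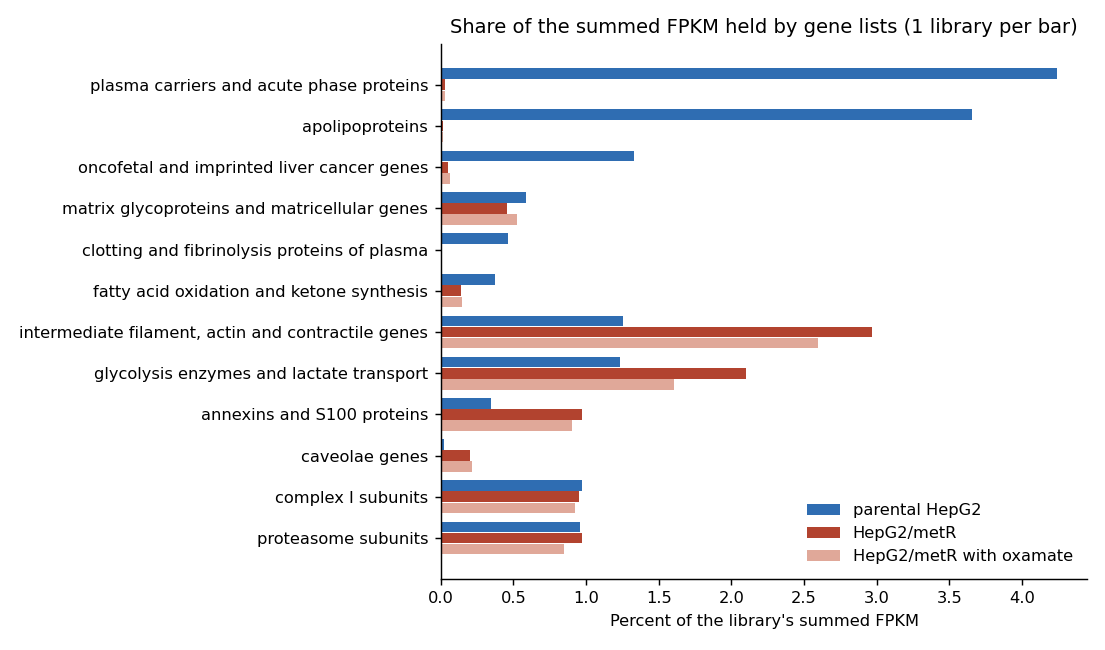
Horizontal bars give the percent of each library's summed FPKM held by 12 gene lists, with 1 bar for parental HepG2, 1 for HepG2/metR and 1 for HepG2/metR with oxamate, and no error bars because each bar is a single library. Plasma carriers went from 4.24% to 0.0265% and apolipoproteins from 3.65% to 0.0143%, while intermediate filament, actin and contractile genes went from 1.26% to 2.97% and glycolysis genes from 1.23% to 2.10%.

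The start regions of ALB and AFP, related genes that lie near each other on chromosome 4, are printed because both genes were among the largest falls. That of LDHB is printed because it was the largest rise among the genes other than small RNAs. For each, the 250 bases before the annotated start are given from RefSeq's promoter table (GRCh38.p14), 5′ to 3′ on the gene's strand. Capitals mark CG dinucleotides, the bases at which promoters can be methylated.
ALB, chr4:73404037-73404286, plus strand: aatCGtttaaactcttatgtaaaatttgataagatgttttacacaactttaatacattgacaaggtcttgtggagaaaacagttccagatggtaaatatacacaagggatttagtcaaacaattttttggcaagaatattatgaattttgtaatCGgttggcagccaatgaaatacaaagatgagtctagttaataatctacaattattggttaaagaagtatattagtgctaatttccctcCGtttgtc
AFP, chr4:73435971-73436220, plus strand: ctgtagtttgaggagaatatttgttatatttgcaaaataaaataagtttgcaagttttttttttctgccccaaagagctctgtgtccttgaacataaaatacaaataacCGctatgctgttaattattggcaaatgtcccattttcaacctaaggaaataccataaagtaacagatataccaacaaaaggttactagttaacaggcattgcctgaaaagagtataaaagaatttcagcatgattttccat
LDHB, chr12:21657843-21658092, minus strand: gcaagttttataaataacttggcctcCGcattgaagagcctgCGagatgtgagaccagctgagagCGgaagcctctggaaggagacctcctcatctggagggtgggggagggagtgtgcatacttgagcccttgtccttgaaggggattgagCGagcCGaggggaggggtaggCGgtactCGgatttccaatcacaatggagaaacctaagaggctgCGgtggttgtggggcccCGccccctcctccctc
ALB had 3 CG dinucleotides and AFP had 1, against a median of 11 over all windows and 9 in LDHB. Of all windows of this length in the table, 22.9% had at most 2 CG dinucleotides. These counts describe the letters only, and methylation was not measured. A summary over all switched genes was void, because only 64.2% of the switched-off and 65.6% of the switched-on genes had a window, short of the 80% needed.

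The transcription factors of the liver were mostly low as well. Of 23 liver transcription factors kept from 27, HepG2/metR had 18 at least 2-fold lower and 2 higher, with a median log2 change of -2.10 (unfiltered -1.97). NR0B2, a corepressor in bile acid control, was listed at 82.2 FPKM in parental cells and at 0 in both HepG2/metR libraries. CEBPA, a factor of the mature hepatocyte, stood at 74.3, 0.558 and 0.723 FPKM, and NR1H4, the bile acid receptor, at 34.7, 0.0328 and 0 FPKM. The FOXA genes, which open liver enhancers, were lower as a family, with FOXA1 at 26.9, 0.712 and 0.966 FPKM, FOXA2 at 13.4, 0.702 and 0.747, and FOXA3 at 17.5, 0.343 and 0.541. PROX1, a factor of hepatoblasts, stood at 13.1 FPKM in parental cells and was listed at 0 in HepG2/metR. Of the higher ones, NR2F2, an orphan nuclear receptor, stood at 6.02, 42.3 and 37.5 FPKM. Factors with wider expression were closer, with ESRRA at 19.7 and 10.9 FPKM and CEBPB at 13.3 and 7.84 FPKM in parental and HepG2/metR cells.

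The enzyme programs of the liver were reduced to different degrees, and every one of the medians below was under that over all genes. Of 31 amino acid catabolism genes kept from 46, 23 were lower and 0 higher, with a median of -2.87 (unfiltered -1.36). Of the tyrosine breakdown enzymes, HPD stood at 145, 0.0732 and 0.0826 FPKM and HGD at 66.2, 0.0564 and 0.0553 FPKM, while FAH, the last of the pathway, was within 2-fold at 36.6 and 23.9 FPKM in parental and HepG2/metR cells. AHCY, which every methylating cell needs, was within 2-fold at 245, 183 and 158 FPKM. Of 22 cytochrome P450 and bile acid genes kept from 39, 15 were lower and 2 higher, with a median of -2.37, but the unfiltered median was only -0.20. CYP27A1, which hydroxylates the sterol side chain, stood at 69.2, 0.130 and 0.0159 FPKM, and the canalicular exporter ABCC2 at 104, 17.6 and 32.2 FPKM. Of 22 conjugation enzymes kept from 31, 15 were lower and 3 higher, with a median of -2.21 (unfiltered -1.49). The steroid sulfotransferase SULT2A1 was listed at 112 FPKM in parental cells and at 0 in both HepG2/metR libraries. GSTP1, the glutathione transferase of most extrahepatic tissues and low in hepatocytes, was the opposite, at 0.388, 218 and 178 FPKM.

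Sugar and fat metabolism showed smaller medians over kept members only. Unfiltered, the cytochrome P450 and bile acid median of -0.20 was smaller in size than any of theirs. Of 13 gluconeogenesis, fructose and glycogen genes kept from 21, 8 were lower and 0 higher, with a median of -1.25 (unfiltered -0.54 over the 20 found). KHK, which starts fructose use, stood at 26.9 FPKM in parental cells and 2.70 in HepG2/metR, and PCK2, the mitochondrial carboxykinase, at 126, 20.8 and 12.2 FPKM. G6PC3, the phosphatase of wider expression, was within 2-fold at 49.5, 62.0 and 50.0 FPKM. Of 28 fatty acid oxidation and ketone genes kept from 30, 12 were lower and 1 higher, with a median of -0.85 (unfiltered -0.81). FABP1, the liver fatty acid carrier, stood at 490, 0.200 and 0.200 FPKM. ETFB, a subunit of the electron carrier that takes electrons from fat oxidation, stood at 513, 30.5 and 20.9 FPKM, while its partner subunit ETFA was within 2-fold at 162, 107 and 89.4 FPKM. All 24 cholesterol synthesis genes were kept, 15 lower and 1 higher, with a median of -1.15. MVD, a mevalonate pathway enzyme, stood at 85.6, 4.41 and 4.53 FPKM. FDPS, a later enzyme of the same pathway, was within 2-fold at 170, 131 and 74.0 FPKM.

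Junction genes of epithelia were mostly lower, and keratins were exchanged. Of 30 tight junction and epithelial adhesion genes kept from 40, 20 were lower and 2 higher, with a median of -1.79 (unfiltered -1.49). EPCAM, an epithelial adhesion molecule, stood at 102, 0.0900 and 0.0661 FPKM, and CLDN4, a tight junction claudin, at 72.9, 0.0209 and 0.0205 FPKM. The desmosome gene DSP was partly retained at 53.8, 5.70 and 7.91 FPKM, and the desmosomal cadherin DSG2 was within 2-fold at 36.5, 24.0 and 25.5 FPKM. Of 10 keratins kept from 16, 5 were higher and 2 lower, and the unfiltered median was 0.02. KRT19, a keratin of bile ducts, stood at 214, 12.3 and 10.0 FPKM and KRT23 at 35.9, 0.0230 and 0.0226 FPKM. KRT7, also a duct keratin, stood at 0.632, 127 and 110 FPKM, KRT80 at 0.959, 40.2 and 40.4 FPKM, and KRT81, a hair keratin, at 0.0723, 26.9 and 31.6 FPKM. TFAP2A, a factor of surface ectoderm, was listed at 0, 19.7 and 23.8 FPKM. The keratin sum hardly differed, at 1946 FPKM in parental cells and 1924 FPKM in HepG2/metR, because KRT8 and KRT18 made up most of it in both. The keratins kept include 5 that were under 1 FPKM in parental cells and entered through their level in HepG2/metR.

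Fetal and imprinted genes that liver cancers re-express were mostly lower as well. Of 15 oncofetal genes kept from 19, 10 were lower and 2 higher, with a median of -5.24 (unfiltered -1.86). IGF2, a fetal growth factor, stood at 345, 1.33 and 2.02 FPKM, and DLK1, a surface protein of hepatoblasts, at 139, 0.0246 and 0.0965 FPKM. The RNA-binding protein IGF2BP2 was within 2-fold at 35.1, 33.6 and 29.7 FPKM.

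Some genes of the cytoskeleton and of the plasma membrane were higher. Of 30 intermediate filament, actin and contractile genes kept from 32, 11 were higher and 5 lower, with a median of 0.66 (unfiltered 0.52). VIM, the intermediate filament of mesenchymal cells, stood at 1.23, 1576 and 1140 FPKM. FLNC, a filamin of muscle, stood at 0.0230, 70.1 and 78.6 FPKM, and TPM2, a tropomyosin, at 4.64, 215 and 219 FPKM. The list was not raised as a whole. NES, the filament protein of progenitor cells, stood at 38.6, 0.0377 and 0.0675 FPKM, and ACTA2, smooth muscle actin, at 22.5, 7.36 and 11.2 FPKM, while ACTG1 was within 2-fold at 1293, 1674 and 1805 FPKM. MSN, which ties actin to the membrane, stood at 0.379, 183 and 155 FPKM. Caveolae, the small pits of the plasma membrane, had a list median of 3.47 (unfiltered 3.13), with 6 of 8 genes kept from 10 higher and 0 lower, and 4 of the 8 were under 1 FPKM in parental cells. CAV1, their main coat protein, stood at 0.152, 346 and 305 FPKM, CAV2 at 0.228, 41.7 and 45.5 FPKM, and PTRF, the cavin that shapes them, at 34.9, 463 and 440 FPKM. PACSIN2, which bends membranes in many settings, was within 2-fold at 50.3, 27.0 and 26.2 FPKM.

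Transcription factors of mesenchymal cells were higher for some members only. Of 16 kept from 25, 8 were at least 2-fold higher and 2 lower, with a median of 0.87 (unfiltered 0.37), and 8 of the 16 were under 1 FPKM in parental cells. ETS1, a factor of mesenchymal and endothelial cells, stood at 0.446, 132 and 107 FPKM, and FOSL1, an AP-1 subunit, at 11.5, 192 and 115 FPKM. Factors often tied to epithelial-to-mesenchymal transition were higher from levels near 0. ZEB2 stood at 0.0327, 5.27 and 7.72 FPKM, SNAI2 at 0.0431, 6.48 and 12.6 FPKM, and TWIST1 was listed at 0, 3.29 and 3.91 FPKM. ZEB1 was within 2-fold at 5.30, 9.30 and 10.1 FPKM. HMGA2, a chromatin protein of fetal and tumour cells, was high in all 3 libraries, at 112, 123 and 86.3 FPKM.

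The matrix and its receptors were remodelled in both directions. Of 27 collagen and collagen-processing genes kept from 34, 9 were higher and 11 lower, with an unfiltered median of -0.11. The basement membrane chains COL4A1 and COL4A2, which assemble together, stood at 0.0386 and 0.155 FPKM in HepG2/wild and at 52.7 and 104 FPKM in HepG2/metR, and the crosslinking enzyme LOXL2 at 1.21, 118 and 102 FPKM. COL9A3, a chain of cartilage collagen, stood at 98.9 FPKM in parental cells and was listed at 0 in HepG2/metR. Of 25 matrix glycoproteins kept from 37, 10 were higher and 9 lower, with an unfiltered median of -0.08. FN1 (fibronectin), often used as a mesenchymal marker but also a major liver product, stood at 1503, 45.7 and 93.7 FPKM, and SPP1 (osteopontin) at 1012, 10.8 and 13.2 FPKM. CYR61, a matricellular protein, stood at 9.86, 680 and 547 FPKM, whereas its relative CTGF was within 2-fold at 115, 81.4 and 102 FPKM. LAMB3, a chain of epithelial laminin, stood at 0.275, 42.4 and 40.8 FPKM. Of 21 integrins and adhesion receptors kept from 32, 11 were higher and 3 lower, with a median of 1.41, but the unfiltered median was only 0.06. CD44, the hyaluronan receptor, stood at 0.152, 248 and 238 FPKM, ITGA3, a laminin receptor chain, at 1.88, 212 and 194 FPKM, and CDH13, a cadherin without a cytoplasmic tail, was listed at 0, 56.7 and 82.8 FPKM. ITGB1, the shared beta chain, was within 2-fold at 156, 248 and 248 FPKM.

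Proteases, growth factor receptors and cytokines also changed their members. Of 23 urokinase system and matrix protease genes kept from 32, 14 were higher and 4 lower, with a median of 1.75 (unfiltered 0.66), and 7 of the 23 were under 1 FPKM in parental cells. ADAMTS1, a secreted matrix protease, stood at 0.0275, 102 and 97.3 FPKM, and the plasminogen activators PLAT and PLAU at 0.413, 34.1 and 23.8 FPKM and at 4.35, 107 and 44.4 FPKM. Of 44 growth factor genes kept from 55, 19 were higher and 12 lower, with a median of -0.02 (unfiltered 0). AXL, a receptor tyrosine kinase, stood at 3.22, 231 and 215 FPKM, and its ligand GAS6 at 0.303, 56.6 and 44.4 FPKM. IGFBP3, which binds insulin-like growth factors, stood at 0.238, 193 and 202 FPKM. FGFR3 stood at 78.7, 0.206 and 0.250 FPKM. Of 20 cytokines and chemokines kept from 31, 12 were higher and 7 lower, with an unfiltered median of 0.23. The highest of them in parental cells, CCL20, stood at 124, 0.109 and 0.216 FPKM, and IL18, an inflammasome product, at 5.87 FPKM in parental cells and 59.9 in HepG2/metR. Their sum was lower in HepG2/metR, at 165 against 340 FPKM.

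Annexins and S100 proteins, both calcium-binding families of the cell periphery, exchanged members within each family. Of 20 kept from 27, 9 were higher and 7 lower, with an unfiltered median of 0.11. ANXA1 stood at 2.01, 754 and 448 FPKM and ANXA2 at 66.1, 2268 and 1806 FPKM, while ANXA5 was within 2-fold at 269, 302 and 311 FPKM. S100P was listed at 533 FPKM in parental cells and 0 in both HepG2/metR libraries, and S100A1 at 285, 0.366 and 0.274 FPKM. Of 37 interferon-stimulated and MHC class I genes kept from 44, 8 were higher and 9 lower, with a median of 0.34 (unfiltered 0.26). IFI16, a DNA sensor, stood at 0.0647, 16.2 and 19.8 FPKM. Of 6 metallothioneins kept from 10, 4 were lower and 0 higher, with an unfiltered median of -0.78, though the most abundant, MT2A, stood at 1686, 3254 and 2201 FPKM. MT1G was listed at 175 FPKM in parental cells and at 0 in both others.

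**Figure D3:**
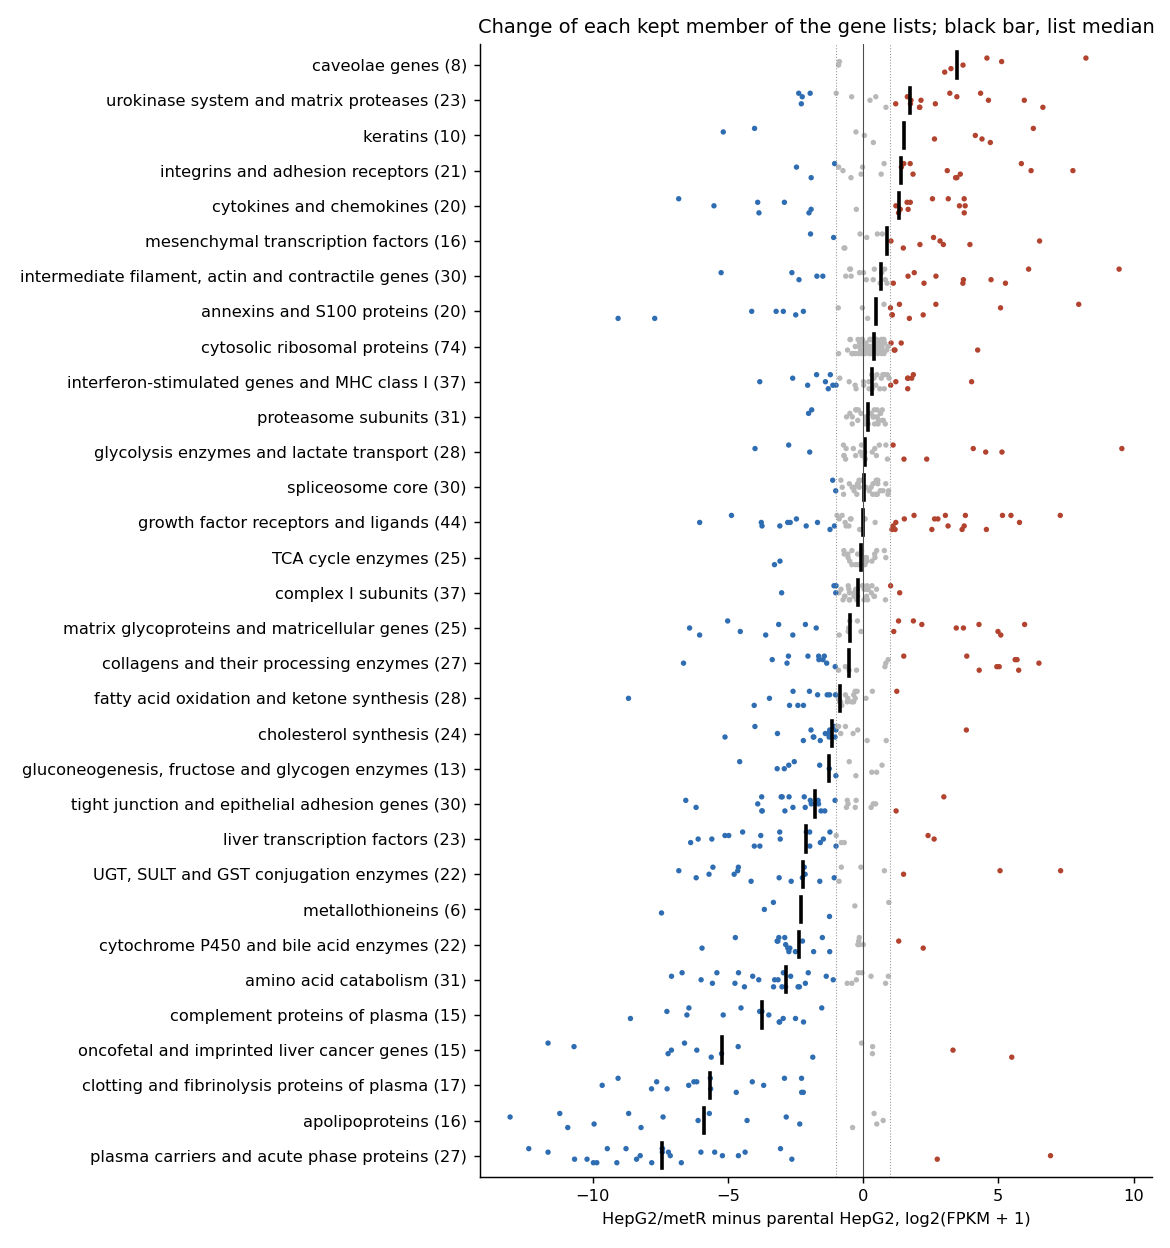
Each point is 1 kept gene of the named list, placed by its log2(FPKM + 1) in HepG2/metR minus that in parental HepG2, with 1 library each. The number of genes kept is in parentheses, the black bar is the median over kept genes, dotted lines mark 2-fold, and lists are ordered by median from caveolae genes (3.47) to plasma carriers and acute phase proteins (-7.43).

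Genes of energy supply, the process metformin acts on, were mostly close between the cultures. Of 28 glycolysis and lactate transport genes kept from 29, 18 were within 2-fold, 7 higher and 3 lower, with a median of 0.07 (unfiltered 0.08). GAPDH was within 2-fold at 2308, 4303 and 2720 FPKM. The sum over the list was 6944 FPKM in parental cells, 11240 in HepG2/metR and 7591 with oxamate. Of the 7 higher members 3 were under 1 FPKM in parental cells, namely LDHB, HK1 and PFKM. LDHB, a lactate dehydrogenase subunit, stood at 0.298, 983 and 712 FPKM. HK1, the hexokinase of most tissues, stood at 0.950, 44.1 and 40.2 FPKM, PFKM, the muscle phosphofructokinase, at 0.700, 27.6 and 27.5 FPKM, and PFKP, the platelet form, at 4.22, 182 and 174 FPKM. The glucose transporter SLC2A1 was lower, at 261, 37.9 and 28.6 FPKM. All 37 complex I subunits listed were kept, and 31 were within 2-fold, with a median of -0.21. The exceptions included NDUFAB1, the mitochondrial acyl carrier protein, at 450, 54.9 and 56.8 FPKM, and NDUFA3 at 95.9, 246 and 179 FPKM. Of 25 TCA cycle genes 23 were within 2-fold, and the 2 lower were the NADP-dependent isocitrate dehydrogenases, IDH1 at 374, 43.5 and 43.4 FPKM and IDH2 at 61.3, 5.42 and 4.22 FPKM.

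Isoform exchange was examined in 21 pairs of genes set down as having the same role. In each, 1 gene was labelled the liver form (hepatocyte or epithelial) and 1 the general form (wider or mesenchymal). These labels, among them LDHA, SLC16A1 and BCAT2 as liver forms, were not checked in hepatocytes or other tissues. In 17 pairs the liver form reached 1 FPKM in either library, and it was at least 2-fold lower in 11 and higher in 1. The general form was at least 2-fold higher in 7 pairs and lower in 3. Both moves occurred in 4 pairs. ALDH1A1, a retinal dehydrogenase, stood at 278, 0.219 and 0.0919 FPKM, and ALDH1A3 was listed at 0, 3.43 and 3.93 FPKM. ERBB3 stood at 53.3, 6.85 and 8.90 FPKM and EGFR, its relative, at 2.66, 29.1 and 42.5 FPKM. CPS1, the urea cycle's carbamoyl phosphate synthetase, stood at 11.6, 2.08 and 2.67 FPKM and CAD, that of pyrimidine synthesis, at 13.2, 28.7 and 24.7 FPKM. The liver pyruvate kinase PKLR stood at 8.06, 0 and 0.0117 FPKM, and PKM at 428, 1220 and 933 FPKM. Over all 21 pairs, with no limit on level, the share of the general form was higher in HepG2/metR in 16 and lower in 4. A higher share did not need a rise of the general form. SLC2A1 went from 91.8% to 99.9% of its pair while falling from 261 to 37.9 FPKM, and PCK2 from 99.7% to 100% while falling from 126 to 20.8 FPKM. GJA1 made up 100% of its pair in HepG2/metR at 0.0911 FPKM. The count of shares is therefore no count of exchanges. PFKP made up 7.67% of its pair in parental cells and 85.8% in HepG2/metR, LDHB 0.0464% and 46.1%, and VIM against KRT18 0.203% and 66.7%.

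Several pairs showed loss without exchange. MAT1A, the liver form of the enzyme that makes S-adenosylmethionine, stood at 42.8, 0.0316 and 0.0309 FPKM, and MAT2A was within 2-fold at 111, 177 and 127 FPKM. The gap junction protein GJB1 stood at 69.4 FPKM in parental cells and at 0 in both others, and GJA1 was near 0 in all 3 libraries. CDH1 (E-cadherin) stood at 5.92, 0.0365 and 0.0214 FPKM, and CDH2 (N-cadherin) was within 2-fold at 35.2, 33.4 and 36.1 FPKM, so parental cells already held more CDH2 than CDH1 RNA per length. In the reverse direction BCAT2, a mitochondrial aminotransferase set down as the liver side of its pair, stood at 0.898, 24.8 and 19.5 FPKM.

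**Figure D4:**
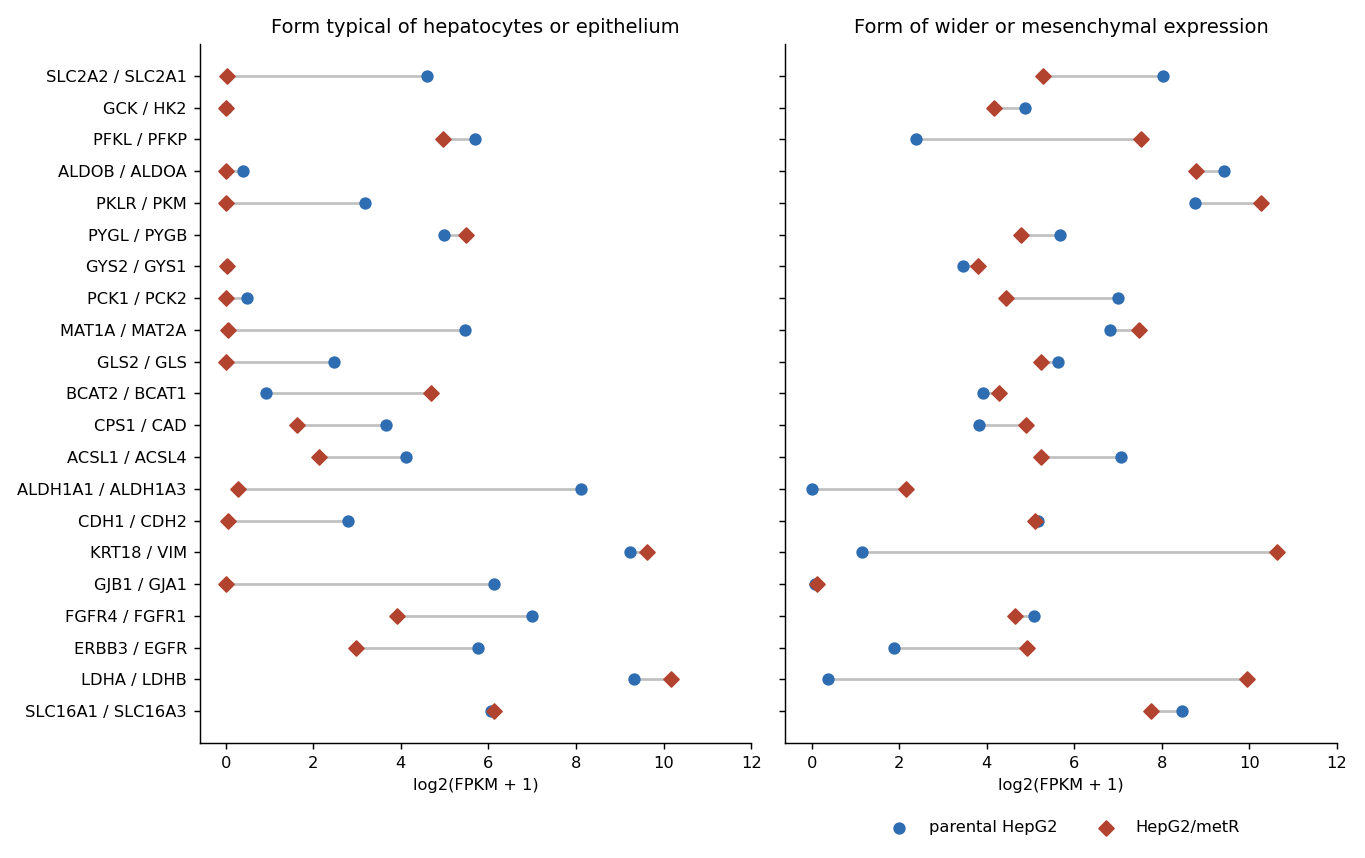
Each row is 1 of 21 pairs of genes, with the form labelled hepatocyte or epithelial on the left panel and the form labelled wider or mesenchymal on the right. Circles give log2(FPKM + 1) in parental HepG2 and diamonds in HepG2/metR, with 1 library each, and a line joins the 2 values. On the left 11 diamonds lie at least 1 unit left of their circle among forms expressed at 1 FPKM or more, and on the right 7 lie at least 1 unit to the right, furthest for LDHB and VIM.

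Machinery that every cell uses differed less than the programs above. Ribosomal proteins, proteasome, spliceosome, complex I and TCA cycle genes made up 197 genes, of which 7 were at least 2-fold higher and 10 lower, with a median of 0.13. The ribosomal proteins had a median of 0.41, with 69 of 74 within 2-fold, and their share of the summed FPKM was 18.7% in parental cells and 24.2% in HepG2/metR. Of 31 proteasome subunits 29 were within 2-fold. The 2 lower ones, PSMB5 at 495, 122 and 107 FPKM and PSMA6 at 606, 161 and 119 FPKM, are both on chromosome 14.

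Gene position on the chromosomes went with the size and direction of change. A chromosome could be given to 11936 of 12116 genes other than small RNAs (98.5%), by symbol in RefSeq's gene table (GRCh38.p14), which was used for gene order only. The medians of chromosomes 1 to 22 and X, with Y left out, ran from -0.65 on chromosome 16 to 0.66 on chromosome X, against 0.01 over all. Chromosome 20 had a median of -0.63, chromosome 14 of -0.47 and chromosome 22 of -0.45, and chromosome 5 one of 0.39. On chromosome 16, 36.8% of 555 genes were at least 2-fold lower and 5.77% higher. On chromosome X, 35.0% of 400 genes were at least 2-fold higher and 9.75% lower. The shifts were also present among genes expressed in both cultures. Among the 4906 genes at 10 FPKM or more in both libraries the medians were -0.54 on chromosome 16, -0.54 on chromosome 20, -0.41 on chromosome 14 and 0.52 on chromosome X.

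On some chromosomes all parts were shifted one way, and on others not. When genes were taken in order in 227 blocks of about 50 neighbours, all 11 blocks of chromosome 16, all 6 of chromosome 20, all 7 of chromosome 14 and all 9 of chromosome 9 had a median below 0. All 8 blocks of chromosome X, all 10 of chromosome 5, all 13 of chromosome 11 and all 12 of chromosome 12 had one above 0. All 5 blocks of chromosome 22 and all 3 of chromosome 18 were also below 0, and all 7 of chromosome 15 above 0. The remaining chromosomes were mixed, with block medians from -0.71 to 0.71 on chromosome 19 and from -0.70 to 0.66 on chromosome 1. The lowest block of all, at -1.60, ran from DHRS4 to NFKBIA on chromosome 14, with 42 of 50 genes at least 2-fold lower. It holds PSMA6 and PCK2, and the block before it, with a median of -1.02, holds PSMB5. Genes of the block other than liver genes were lower too, such as STRN3 at 38.6, 8.56 and 8.08 FPKM. Of the machinery genes all 7 on chromosome 16 and all 6 on chromosome 20 were below 0, and all 7 on chromosome X and all 14 on chromosome 17 were above 0. All 4 on chromosome 4 were below 0, and the 2 on chromosome 10 and the 2 on chromosome 21 were above 0. On the remaining chromosomes they were mixed, with 2 of 8 above 0 on chromosome 14, 2 of 9 above 0 on chromosome 9 and 5 of 17 below 0 on chromosome 11. RPL10 and RPL39, both on chromosome X, were among the 5 ribosomal proteins at least 2-fold higher, at 338 and 929 FPKM in parental cells and 692 and 2100 FPKM in HepG2/metR.

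The oxamate library showed the same pattern against parental cells, which is the same parental library used again, with medians of -0.70 on chromosome 16, -0.66 on chromosome 20 and 0.70 on chromosome X. Between the 2 HepG2/metR libraries, the same chromosome medians ran from -0.00070 to 0.0657. DNA copy number was not measured, and the part of copy number, of the cultures' origin and of selection in these shifts was not tested.

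**Figure D5:**
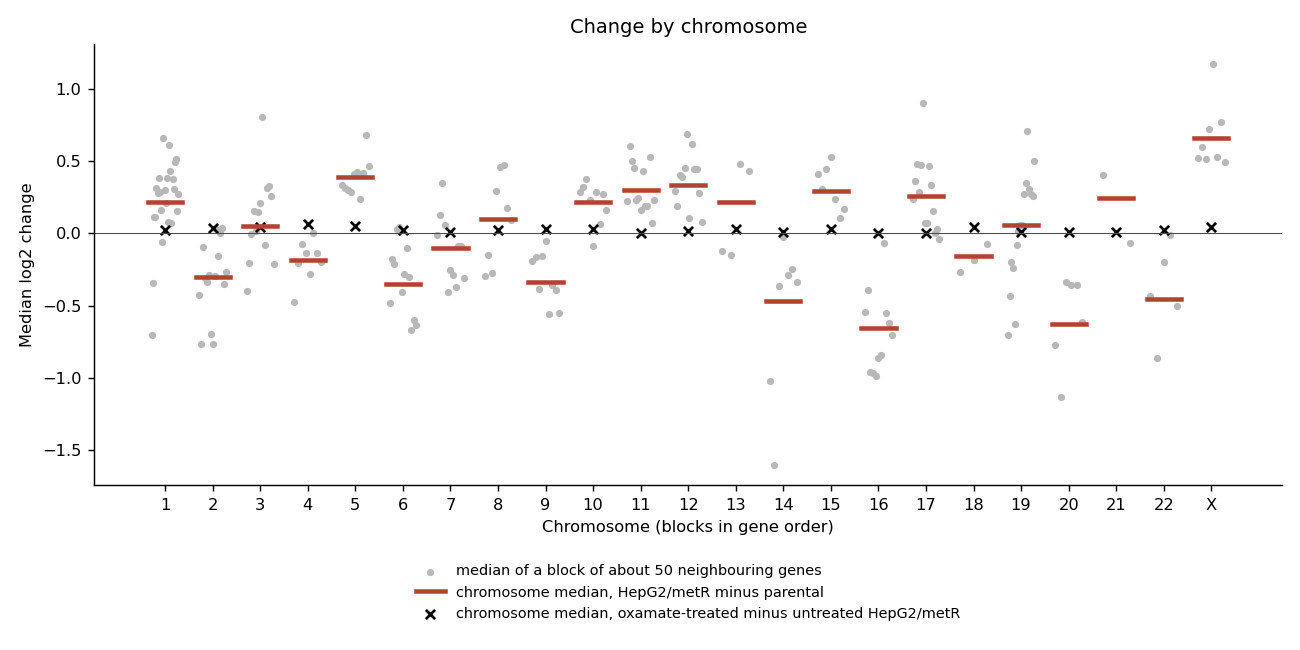
Red bars give the median log2 change (HepG2/metR minus parental HepG2) of the genes on each of chromosomes 1 to 22 and X, grey points the medians of successive blocks of about 50 neighbouring genes in order, and crosses the chromosome medians of oxamate-treated minus untreated HepG2/metR, with 1 library per condition. Red bars reach from -0.65 on chromosome 16 to 0.66 on chromosome X, while all crosses lie between -0.00070 and 0.0657.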

How the data were processed

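Total RNA of HepG2/wild, HepG2/metR and HepG2/metR+oxamate was sequenced, with 1 library each. The submitters' processing notes name FastQC 0.11.5, STAR 2.5.1b, Cufflinks 2.2.1 and the hg19 build, and the annotation and filters are not given in the sources used here. The authors deposited 1 value per gene symbol on a log2 scale. The unit was inferred from the values, which have the form of log2(FPKM + 1), and FPKM was recovered as 2 to the power of the value, minus 1. The files held 28 symbols that had been turned into dates, of which 18 were kept and are not named. The values were used without further scaling, and genes with a mean of at least 1 FPKM over the 3 libraries were kept. Reads were not available as counts, so intervals that need the depth are not given.

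The members and the 37 gene lists, including their grouping into expected gains and losses, were chosen with earlier results of these data known, so the direction of a list is not independent evidence. With 1 library per group no test was made, and a list is described by its counts and median beside those over all genes, with the unfiltered median over every listed symbol found. Named genes are, at a mean of at least 10 FPKM with small RNAs left out, the 15 largest rises and falls. Under the same limits they include the 4 largest changes of each list and its highest member within 2-fold. All gene pairs, the transcription factors, the hepatocyte markers and 4 genes of the label check were named too. Some genes that this rule names are not reported here. SAA2, SAA4, FN1, FAH, SNORD99, RPL21, the genes of the chromosome 14 block and those of the closing section were chosen after their values were seen. Lists, pairs and 202 gene families by symbol stem were matched exactly. The calculation was checked on artificial libraries with known changes. Alternatives were pseudocounts of 0.1 and 5, no filter and a mean of at least 5 FPKM, 3 scalings, leaving out small RNAs, and other thresholds. The restriction of chromosome medians to genes at 10 FPKM or more in both libraries was added after seeing the data. Python 3.11, numpy 2.4.6, pandas 2.3.3 and matplotlib 3.10.9 were used.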

Additional observations from a re-analysis of the deposited data

How the results depend on the processing

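Each value rests on 1 library per condition, so these alternatives show the effect of processing and not of biological spread, and at an unknown depth low values are the least certain. The counts of genes at least 2-fold higher and lower moved with the treatment of low values, from 2021 and 2147 to 1005 and 1391 with a pseudocount of 5 and to 1249 and 1428 with a mean of at least 5 FPKM, and a 4-fold threshold left 806 and 1026. Thresholds of 20 and 0.5 FPKM left 140 genes switched on and 233 switched off. Under the other alternatives the 4 counts stayed within 1.5 times. The median log2 change over all genes was 0.15 under upper-quartile scaling against 0.02 as deposited, and genes higher then numbered 2320 and genes lower 1878. None of the 20 lists with a median of at least 1 in size changed sign under any alternative. Of the other 17 lists 5 did under at least 1 alternative, and the collagens changed the most, from -0.52 to 0.81 with a mean of at least 5 FPKM. The other 4 were growth factors, TCA cycle, spliceosome and blood cell markers. The pseudocounts and filters moved 64 of 295 list medians by over 1.5-fold, and the scalings and the omission of small RNAs moved 0. Without a filter the median of the cytochrome P450 and bile acid list went from -2.37 to -0.20, that of the keratins from 1.51 to 0.02 and that of the integrins from 1.41 to 0.06, and the squamous markers went from 3.26 to 0. A filter at a mean of 5 FPKM left 1 list, the endothelial markers, with no member. With genes at 10 FPKM or more in both libraries, 1 of 23 chromosome medians changed sign, that of chromosome 3, from 0.05 to -0.01. No paired analysis was possible because each group has 1 sample and no test was made.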

Other observations

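Among 202 groups of genes that share a symbol stem and have at least 8 members kept, the lowest medians belonged to SERPINA (-6.93, 8 of 8 genes at least 2-fold lower), ABCC (-2.51), F (-2.29), AKR (-2.24) and ALDH (-1.99). These medians, like those of the lists, are over kept genes only and support no direction. The AKR stem holds the aldo-keto reductases. The steroid and prostaglandin reductases AKR1C1 and AKR1C2 stood at 699 and 246 FPKM in HepG2/wild and at 0.815 and 0.0496 FPKM in HepG2/metR, and AKR1B10, a retinal reductase of tumours, at 126 and 0.392 FPKM. AKR1B1, the aldose reductase of most tissues, was within 2-fold at 80.7 and 76.9 FPKM, and AKR1E2 was listed at 0 and 2.93 FPKM. The AKR1C genes are near-identical in sequence, so how reads were divided among them is uncertain. Of 15 ALDH genes 10 were lower and 2 higher. ALDH2, which clears acetaldehyde, stood at 81.1, 0.357 and 0.448 FPKM in parental cells, HepG2/metR and HepG2/metR with oxamate. ABCC4, an exporter of cyclic nucleotides, was the exception in its stem, at 5.08, 28.8 and 21.1 FPKM. The F stem mixes clotting factors with unrelated or receptor genes, and within it F3, the tissue factor that starts clotting on cell surfaces, was higher at 5.17, 35.3 and 41.0 FPKM.

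The highest medians belonged to MMP (1.63), KRT (1.51), RGS (1.23), the stem S (1.08), which joins S100 and sphingosine phosphate receptor genes, and RASSF (0.96). Of 11 RGS genes, which shorten signalling by G proteins, 6 were at least 2-fold higher and 1 lower, but 5 of the 6 were under 1 FPKM in parental cells and passed the filter through HepG2/metR. RGS10 stood at 5.69, 80.3 and 86.9 FPKM, and RGS4 was listed at 0 in parental cells and 15.8 FPKM in HepG2/metR. The sphingosine phosphate receptor S1PR1 stood at 0.0144, 24.9 and 31.8 FPKM. RASSF4 went against its stem, at 24.9, 2.38 and 2.42 FPKM.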
